A study of Mus musculus with 6 samples.

Results

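The epicardial genes described here are 10 genes of the mesothelial sheet that covers the heart: Wt1, Tbx18, Tcf21, Aldh1a2, Upk3b, Upk1b, Msln, Krt19, Lrrn4 and Bnc1. They were chosen by name, by joining each identifier of the count table to its symbol, and all 10 were found among the 45792 genes counted. RNA was sequenced from 6 whole hearts taken at embryonic day 13.5. The control group was 3 hearts labelled wild-type and the mutant group was 3 hearts labelled Tie2Cre;Ino80 fl/fl, in which exon 6 of Ino80 is flanked by loxP sites. Tie2Cre acts in endothelial and endocardial cells and their descendants, so the epicardium itself was not a target of the deletion. The labels name the strain C57BL/6, whereas the methods of the study describe transgenic mice of mixed background. The study counts as control any embryo that is not Tie2Cre;Ino80 fl/fl. In the crosses its methods describe, Ino80 flox/+ males with a Cre met Ino80 fl/fl females, so control littermates would carry a floxed allele, and some animals also had a ROSAmTmG reporter. Embryos of both sexes were used without genotyping for sex.

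The epicardium forms when cells of the proepicardium spread over the myocardium. It sends growth signals to the muscle below, makes retinoic acid, and gives rise by epithelial-mesenchymal transition to cardiac fibroblasts and to the mural cells of coronary vessels. WT1, TBX18 and TCF21 are the transcription factors by which it is most often recognised, and uroplakins, mesothelin and keratins mark its epithelial surface. The same surface genes are used by the mesothelium of other organs.

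The libraries held 28948836 to 89675692 counts, the deepest being mutant replicate 1, and each pair of libraries differed by more than counting noise. Ino80 was at 30.2, 31.6 and 32.75 counts per M counts (CPM, scaled by TMM) in control replicates 1 to 3 and at 36.5, 33.7 and 31.8 CPM in mutant replicates 1 to 3 (log2 fold change 0.11, adjusted p = 0.47 from edgeR). These counts cover the whole gene in whole hearts, so they are no check of the loss of 1 exon in endothelial cells, and the hearts are named by their labels.

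All 10 genes were well counted, with 186 to 6178 counts per heart, and all passed the filter on low counts. The surface and keratin genes Upk3b and Krt19 stood higher in mutant hearts, 1.49-fold and 1.6-fold,, whereas Wt1 and Tbx18 did not differ beyond the spread between hearts. With edgeR's quasi-likelihood test and Benjamini-Hochberg adjustment over all 17125 tested genes, 0 of the 10 genes passed an adjusted p of 0.05, as did 0% of all tested genes. At an unadjusted p under 0.05, 4 of the 10 genes were higher (Upk3b, Krt19, Lrrn4 and Bnc1), against 9.48% of all tested genes, and 1 was lower (Upk1b), against 9.98%. DESeq2, the program the study used, was also run here, apart from the study's own results. This run called Upk3b and Krt19 higher at an adjusted p under 0.05 and called none of the 10 lower. It called 2.63% of all genes higher and 3.22% lower. In 3 genes every mutant heart lay above every control heart, against 14.3% of all tested genes, and in 1 gene below, against 12.8%. Of the 10 log2 fold changes 7 were above 0, counting Wt1 at 0.00, where 49.7% of all tested genes were above 0, and the median was 0.22 beside -0.002 for all tested genes. Without mutant replicate 2 the median of the 10 was 0.11. In bulk tissue, more cells of a type and more RNA per cell cannot be told apart.

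Among the transcription factors, Wt1 (chromosome 2, 105126529 to 105173616, GRCm38), a zinc finger protein needed for the epicardium to form mesenchyme, was at 28.8, 20.2 and 26.95 CPM in control replicates 1 to 3 and at 26.1, 26.2 and 24.0 CPM in mutant replicates 1 to 3. The mutant hearts lay inside the range of the control hearts. The means were 25.3 ± 4.53 and 25.4 ± 1.24 CPM (SD, n = 3 each), and the 95% confidence interval of the log2 fold change ran from -0.30 to 0.31 (edgeR adjusted p = 0.99).

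Tbx18 (chromosome 9, 87702800 to 87731260), a T-box factor of the proepicardium and sinus horns, was at 37.3, 54.5 and 43.8 CPM in control and 38.2, 44.6 and 43.6 CPM in mutant hearts. Again the groups overlapped, with a log2 fold change of -0.10 (95% confidence interval -0.42 to 0.22, edgeR adjusted p = 0.71). In the annotation 20.6% of the exonic bases of Tbx18 are shared with a transcript on the opposite strand, D030062O11Rik, and strand use in the counting is not given, so reads of the pair cannot be told apart.

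Tcf21 (chromosome 10, 22817281 to 22820174), a basic helix-loop-helix factor needed for cardiac fibroblasts, was at 22.7, 19.0 and 25.25 CPM in control and 24.7, 30.1 and 24.0 CPM in mutant hearts. Control replicate 3 lay above 2 of the 3 mutant hearts. The log2 fold change was 0.23 (95% confidence interval -0.07 to 0.53, edgeR adjusted p = 0.35).

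Bnc1 (chromosome 7, 81966672 to 81992292), a zinc finger protein of keratinocytes, germ cells and mesothelium, was at 12.1, 7.73 and 8.86 CPM in control and 13.7, 14.3 and 11.5 CPM in mutant hearts. Control replicate 1 stood above mutant replicate 3, so the groups overlapped, although 2 control hearts lay below every mutant heart. The log2 fold change was 0.46 (standard error 0.17, 95% confidence interval 0.06 to 0.86, edgeR adjusted p = 0.21). Without control replicate 1 it was 0.67 and passed, with an adjusted p of 0.048 from edgeR. A pseudogene on the opposite strand shares 2.11% of its exonic bases.

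Aldh1a2 (chromosome 9, 71215789 to 71296243), the enzyme that makes retinoic acid in the epicardium, was at 20.9, 21.75 and 14.35 CPM in control and 22.7, 25.2 and 17.95 CPM in mutant hearts. Replicate 3 was the lowest heart of each group, and the groups overlapped. The log2 fold change was 0.21 (95% confidence interval -0.20 to 0.62, edgeR adjusted p = 0.53), and it was 0.045 without control replicate 3.

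Among the surface genes, Upk3b and Lrrn4 had log2 fold changes above 0, and Upk1b and Msln below 0. Upk3b (chromosome 5, 136038496 to 136046487), a uroplakin of mesothelium, was at 46.6, 36.0 and 44.0 CPM in control and 66.8, 65.7 and 55.7 CPM in mutant hearts. The lowest mutant heart stood above the highest control heart. The means were 42.2 ± 5.51 and 62.7 ± 6.13 CPM (SD, n = 3 each), 1.49-fold apart, with a log2 fold change of 0.57 (standard error 0.12, 95% confidence interval 0.31 to 0.84). Its unadjusted p of 0.0011 gave an adjusted p of 0.083 with edgeR and of 0.0012 with DESeq2.

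Upk1b (chromosome 16, 38773184 to 38800328), a tetraspanin uroplakin, was at 8.46, 7.69 and 8.89 CPM in control and 6.81, 7.43 and 6.36 CPM in mutant hearts. Here every mutant heart lay below every control heart, by a narrow margin. The log2 fold change was -0.28 (standard error 0.12, 95% confidence interval -0.56 to 0.00, edgeR adjusted p = 0.25).

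Msln (chromosome 17, 25748613 to 25754378), which encodes the surface protein mesothelin, was at 18.8, 16.8 and 23.6 CPM in control and 17.4, 17.25 and 18.3 CPM in mutant hearts. The mutant hearts stood inside the control range. The log2 fold change was -0.16 (95% confidence interval -0.46 to 0.13, edgeR adjusted p = 0.50).

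Krt19 (chromosome 11, 100140810 to 100148665), a type I keratin of simple epithelia, had the largest log2 fold change of the 10 genes. It was at 20.3, 11.0 and 17.2 CPM in control and 23.3, 29.1 and 25.4 CPM in mutant hearts, without overlap. The means were 16.1 ± 4.74 and 25.9 ± 2.91 CPM (SD, n = 3 each), 1.6-fold apart. Its log2 fold change of 0.68 had a standard error of 0.20 (95% confidence interval 0.21 to 1.15). The adjusted p was 0.15 with edgeR and 0.027 with DESeq2. With control replicate 2, its lowest heart, left out, the log2 fold change was 0.47.

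Lrrn4 (chromosome 2, 132868305 to 132880891), a membrane protein with leucine-rich repeats, was the steadiest of the 10 genes among the controls. It was at 17.6, 16.9 and 17.6 CPM in control and 19.25, 20.3 and 21.5 CPM in mutant hearts, without overlap. The difference was small, 1.17-fold (log2 fold change 0.23, standard error 0.08, 95% confidence interval 0.04 to 0.42, edgeR adjusted p = 0.20).

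**Figure D1:**
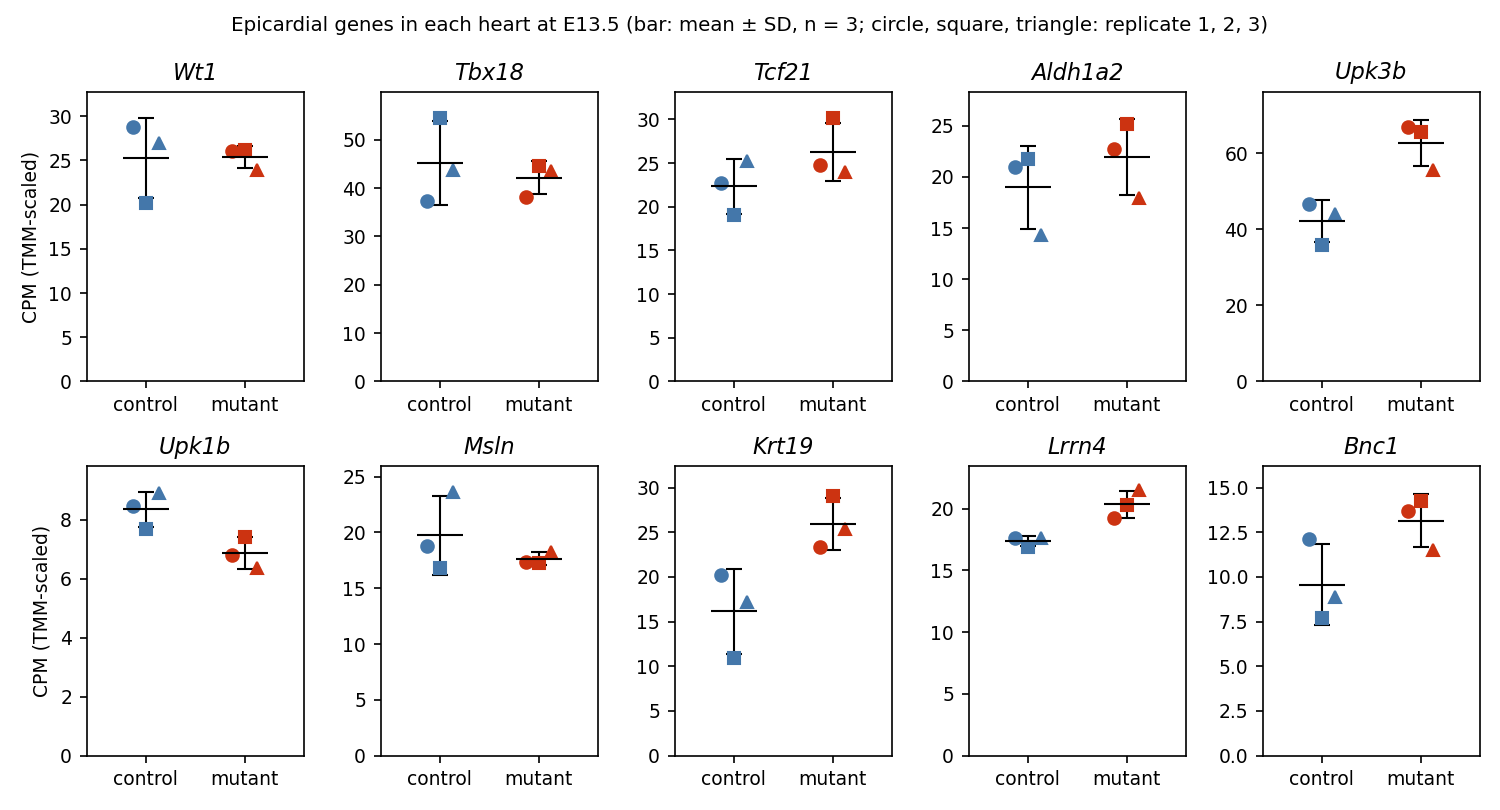
Each panel plots CPM (scaled by TMM, axis from 0) of 1 epicardial gene in the 3 control (blue) and 3 mutant (red) hearts at embryonic day 13.5, with the mean ± SD as bars and the replicate number as the symbol. For Upk3b, Krt19 and Lrrn4 all mutant hearts stand above all control hearts, for Upk1b all stand below, and the other 6 genes overlap.

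**Figure D2:**
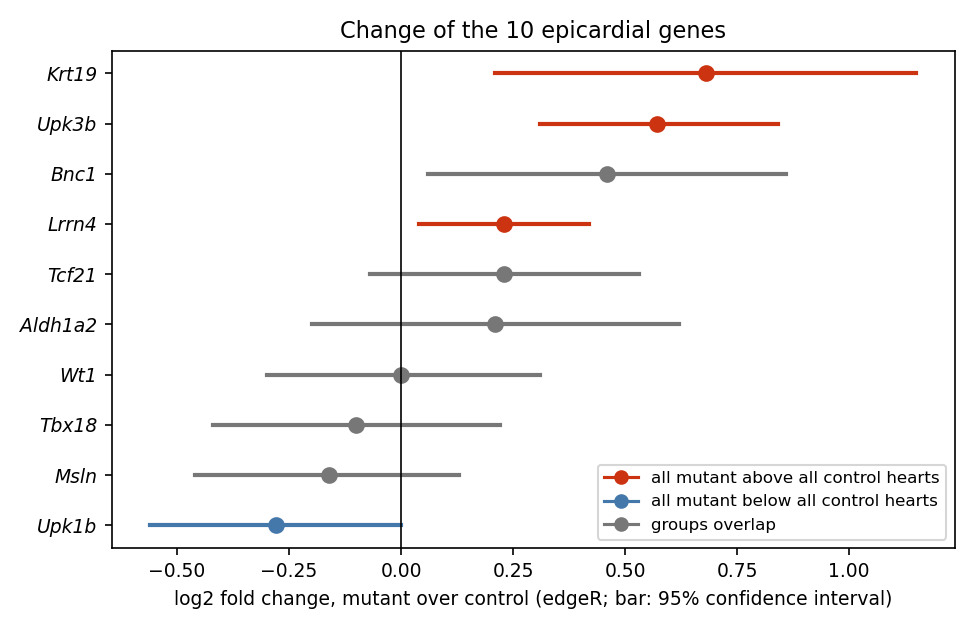
The log2 fold change (mutant over control, edgeR) of each epicardial gene is plotted with its 95% confidence interval. The values run from -0.28 for Upk1b to 0.68 for Krt19, and colour marks whether the groups overlap.

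Upk3b and Lrrn4, which did not overlap between the groups, are shown with the 250 bases before their RefSeq start (GRCm38.p6), because both windows hold GGAATG, the core of the site bound by TEAD factors. RefSeq promoter windows were at hand for 6 of the 10 genes. Krt19 and Upk1b, which also did not overlap between the groups, had no window and could not be searched, nor could Wt1 and Msln. Both strands were searched for GGAATG, for the GATA letters AGATAA, the E-box CAGCTG, the T-box half-site AGGTGTG and GCGTGGG, letters shared by sites of WT1 and EGR factors. No motif contains another. Capitals mark the match, which in Upk3b lies on the opposite strand and reads CATTCC. The windows are chr5:136038246-136038495, plus strand, and chr2:132880863-132881112, minus strand.
Upk3b: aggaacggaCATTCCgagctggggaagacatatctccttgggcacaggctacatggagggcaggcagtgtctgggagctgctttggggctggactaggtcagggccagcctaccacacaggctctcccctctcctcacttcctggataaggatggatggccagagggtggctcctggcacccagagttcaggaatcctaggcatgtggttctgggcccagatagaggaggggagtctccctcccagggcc
Lrrn4: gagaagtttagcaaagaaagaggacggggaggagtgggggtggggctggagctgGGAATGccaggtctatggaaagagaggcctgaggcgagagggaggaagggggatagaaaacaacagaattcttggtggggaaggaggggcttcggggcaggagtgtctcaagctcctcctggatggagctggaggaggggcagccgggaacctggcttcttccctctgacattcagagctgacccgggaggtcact

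GGAATG was in 2 of the 6 windows, against 12.6% of 32851 RefSeq windows. AGATAA was in 1 window, that of Tcf21 (9.99% of all windows), and GCGTGGG in 1, that of Aldh1a2 (4.3%). CAGCTG and AGGTGTG were in 0 of the 6 windows and in 13% and 5.1% of all. Tbx18 and Bnc1 had none of these letters in their windows. The Bnc1 window was 83.6% G or C, compared with 60.8% in Upk3b, 59.2% in Lrrn4 and a median of 52.4% over all windows. These matches are a description of the letters in the windows.

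Levels between genes were compared per length, as CPM per kilobase of annotated exons (RPKM). In control hearts Upk3b was the most abundant, at 12.0 ± 1.56 RPKM (SD, n = 3). Tbx18, Tcf21, Krt19 and Aldh1a2 followed, at means of 9.59, 9.51, 8.70 and 8.40 RPKM, and Msln stood at 6.44 RPKM. Each of these overlapped in range with the next in order. Lrrn4, Wt1 and Upk1b lay lower, at 4.68, 4.09 and 4.0 RPKM, Lrrn4 below every Msln value and overlapping with Wt1, and Bnc1 lay below all of them at 2.06 ± 0.490 RPKM (SD, n = 3). In mutant hearts Upk3b was at 17.8 ± 1.74 RPKM and Krt19 came next at 14.0 ± 1.57 RPKM (SD, n = 3 each), just below the lowest Upk3b value. Tcf21, Aldh1a2 and Tbx18 followed at 11.2, 9.70 and 8.93 RPKM, then Msln, Lrrn4, Wt1, Upk1b and Bnc1 at 5.76, 5.48, 4.10, 3.29 and 2.83 RPKM. Krt19 thus moved from the 4th place to the 2nd and Tbx18 from the 2nd to the 5th. Among neighbours in the mutant order, the ranges of Upk3b and Krt19, Tbx18 and Msln, Lrrn4 and Wt1, and Wt1 and Upk1b did not overlap.

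The summed level of the 10 genes was 234, 212 and 230.5 CPM in control replicates 1 to 3 and 259, 280.2 and 248 CPM in mutant replicates 1 to 3. All mutant hearts were above all control hearts, by sums in which Upk3b and Tbx18 weigh most. The largest rises in mean were those of Upk3b, from 42.2 to 62.7 CPM, and Krt19, from 16.1 to 25.9 CPM. Tbx18 was lower in mean, at 45.2 CPM in control and 42.1 CPM in mutant hearts, as were Msln and Upk1b. Control replicate 2 was the lowest heart for 7 of the 10 genes and the highest for 1, Tbx18. Mutant replicate 2 was the highest heart for 4 genes, Tcf21, Aldh1a2, Krt19 and Bnc1.

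The ratio of each gene to Wt1 within a heart does not depend on library scaling. It was computed after the values above had been seen and is given without a test. Upk3b stood at 1.62, 1.78 and 1.63 counts per Wt1 count in control and at 2.56, 2.51 and 2.32 in mutant hearts. Krt19 stood at 0.703, 0.543 and 0.638 in control and at 0.895, 1.11 and 1.06 in mutant hearts. Of the 9 genes set against Wt1, 4 were higher in every mutant heart than in every control heart (Upk3b, Krt19, Bnc1 and Tcf21), against 7.32% of all tested genes on the same ratio, and 1 was lower (Upk1b), against 5.66%. The 4 higher genes, like Wt1, had their lowest CPM in control replicate 2, a dip that the ratio takes out. Genes at large need not share it, so their shares are only a loose guide. Lrrn4 overlapped on this scale, with its highest control ratio in replicate 2, where Wt1 was lowest.

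**Figure D3:**
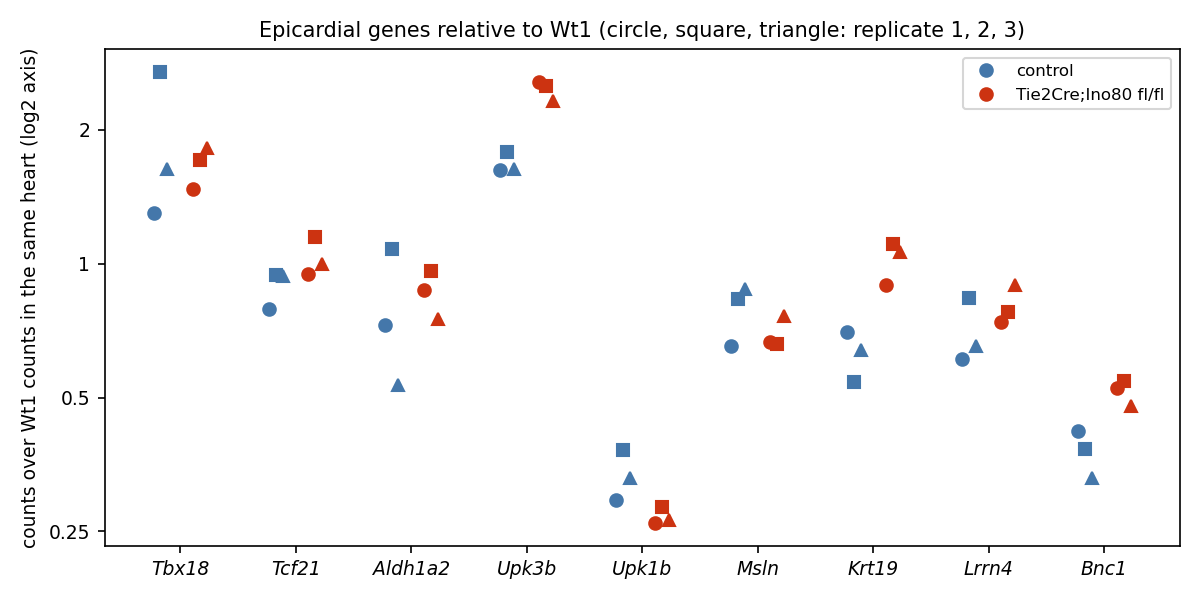
Counts of 9 epicardial genes divided by the Wt1 count of the same heart are plotted on a log2 axis for the 3 control (blue) and 3 mutant (red) hearts. Upk3b, Krt19, Bnc1 and Tcf21 stand higher in all mutant hearts, Upk1b stands lower, and Tbx18, Aldh1a2, Msln and Lrrn4 overlap.

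A further 23 genes of epicardium and mesothelium, listed from general knowledge, were read beside the 10. Of 22 tested, 14 were higher and 8 lower in mutant hearts, with a median log2 fold change of 0.19 that was 0.07 without control replicate 2 and 0.12 without mutant replicate 2. Their summed level, unlike that of the 10 genes, was lower in every mutant heart, at 1063, 1240 and 1188 CPM in control and 1024, 1021 and 1045 CPM in mutant hearts. Cav1 was the gene of the list with the largest drop, at 218.5, 409.8 and 330.5 CPM in control and 189.8, 200.9 and 185 CPM in mutant hearts. The difference between the sums leans on this gene. At an unadjusted p under 0.05, there were 4 higher and 4 lower, against 9.48% and 9.98% of all tested genes. In edgeR 0 passed the adjusted p, whereas DESeq2 called 2 higher and 2 lower, against 2.63% and 3.22% of all genes. Gata5, a zinc finger factor of cardiac precursors, was at 8.67, 4.15 and 6.11 CPM in control and 12.45, 15.75 and 11.2 CPM in mutant hearts, without overlap (log2 fold change 1.05, edgeR adjusted p = 0.10). Alcam, a cell adhesion molecule, was at 44.3, 33.9 and 33.1 CPM in control and 55.5, 59.1 and 49.4 CPM in mutant hearts (log2 fold change 0.56, edgeR adjusted p = 0.097). Cav1, the caveolin of mesothelium and endothelium alike, was lower, at 319.6 ± 96.1 and 192 ± 8.14 CPM (SD, n = 3 each). C3, the complement component, was at 3.12 ± 1.83 and 1.0 ± 0.256 CPM (SD, n = 3 each), with overlap through control replicate 1. The keratins of simple epithelia that pair with Krt19 were named after their values were seen. Krt7 was at 9.18 ± 2.0 and 13.4 ± 1.06 CPM (SD, n = 3 each) without overlap, and Krt8 at 6.06 ± 2.69 and 7.10 ± 0.366 CPM (SD, n = 3 each) with overlap.

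Around Aldh1a2, 11 of 13 further genes of retinoic acid synthesis, breakdown and uptake were tested, with a median log2 fold change of 0.05, which was 0.06 to 0.18 with 1 heart left out, the highest without control replicate 1. None had an unadjusted p under 0.05 in edgeR, where 9.48% of all tested genes were higher and 9.98% lower. DESeq2 called 0 of them, and of all genes 2.63% higher and 3.22% lower. Aldh1a1, another enzyme of this step, was at 2.37 to 4.82 CPM in the 6 hearts, below Aldh1a2 in every heart. Cyp26b1, which degrades retinoic acid, was at 4.41 ± 0.968 and 5.02 ± 0.145 CPM (SD, n = 3 each). Crabp1, a retinoic acid-binding protein, was at 2.18, 0.817 and 0.988 CPM in control and 1.46, 2.47 and 1.40 CPM in mutant hearts.

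Among signals that pass between epicardium, muscle and vessels and their receptors, 23 of 26 genes were tested. At an unadjusted p under 0.05 in edgeR, 6 were higher and 0 lower, against 9.48% and 9.98% of all tested genes. DESeq2 called 2 higher and 0 lower, against 2.63% and 3.22% of all genes. The median log2 fold change was 0.09, and ran from 0.03 without mutant replicate 1 to 0.18 without control replicate 3. Wnt5a, a secreted Wnt ligand, was at 53.5, 36.2 and 38.4 CPM in control and 65.6, 70.3 and 65.9 CPM in mutant hearts (log2 fold change 0.65, edgeR adjusted p = 0.091). Bmp4, a bone morphogenetic protein, was at 8.91, 5.82 and 7.81 CPM in control and 12.0, 14.1 and 11.5 CPM in mutant hearts (log2 fold change 0.74, edgeR adjusted p = 0.097). Tgfb2, a TGF-beta ligand, was at 57.6 ± 11.25 and 74.3 ± 5.75 CPM, and Fgf10, a fibroblast growth factor, at 0.654 ± 0.476 and 1.66 ± 0.341 CPM (SD, n = 3 each). These ligands are also made by other cells of the heart.

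Of 16 genes linked to the epithelial-mesenchymal transition of the epicardium, 15 were tested, and edgeR gave 3 higher and 2 lower with an unadjusted p under 0.05 and a median log2 fold change of 0.05. DESeq2 called Twist1 higher and Prrx1 and Zeb1 lower, at adjusted p-values of 0.011, 9.3e-05 and 0.024. Twist1 and Prrx1, both mesenchymal transcription factors, stood apart in opposite directions. Twist1 was at 10.35, 5.51 and 4.72 CPM in control and 12.45, 13.05 and 14.8 CPM in mutant hearts (log2 fold change 0.96, edgeR adjusted p = 0.13). Prrx1 was at 24.6 ± 1.27 and 17.1 ± 0.469 CPM (SD, n = 3 each; log2 fold change -0.52, edgeR adjusted p = 0.065). Zeb1, a repressor of epithelial genes, had a log2 fold change of -0.29, and Sox9, a factor of valve and cartilage precursors, of 0.37. Cdh1, the epithelial cadherin, was at 0.409 CPM or less in every heart and was not tested, and was named after its values were seen.

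More of the genes listed for cells that arise from the epicardium were lower than higher in mutant hearts. Of all 17125 tested genes 8616 were lower. Summed levels of the fibroblast genes overlapped, at 3414 to 4799 CPM in control and 3136 to 4084 CPM in mutant hearts. Those of the mural cell genes also overlapped, at 2406 to 2713 CPM in control and 2524 to 2626 CPM in mutant hearts. From which cells of the heart these reads came was not tested. Of 18 fibroblast genes 13 were lower, with a median log2 fold change of -0.20 that was 0.03 without control replicate 3. DESeq2 called 5 of the 18 lower and 1 higher, against 3.22% and 2.63% of all genes. Dpt, which encodes dermatopontin, was at 20.4, 36.9 and 47.0 CPM in control and 8.94, 8.93 and 10.2 CPM in mutant hearts (log2 fold change -1.89, adjusted p = 0.065 with edgeR and 1e-10 with DESeq2). Lum, Postn and Dcn, which encode matrix proteins, had log2 fold changes of -0.42, -0.43 and -0.46. Of 13 mural cell genes 9 were lower, with a median of -0.17 that was -0.04 without control replicate 3. DESeq2 called 3 of the 13 lower and 1 higher, against 3.22% and 2.63% of all genes. Rgs5, a pericyte gene, was at 44.2, 99.95 and 101 CPM in control and 12.75, 11.05 and 16.1 CPM in mutant hearts. Kcnj8, a potassium channel of pericytes, had a log2 fold change of -0.74, and Cnn1, a smooth muscle calponin, of 0.48. Myh11, the smooth muscle myosin, had a log2 fold change of -2.40, with overlap through control replicate 1. It was at 0.604, 2.96 and 4.75 CPM in control and 0.498, 0.705 and 0.342 CPM in mutant hearts.

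**Figure D4:**
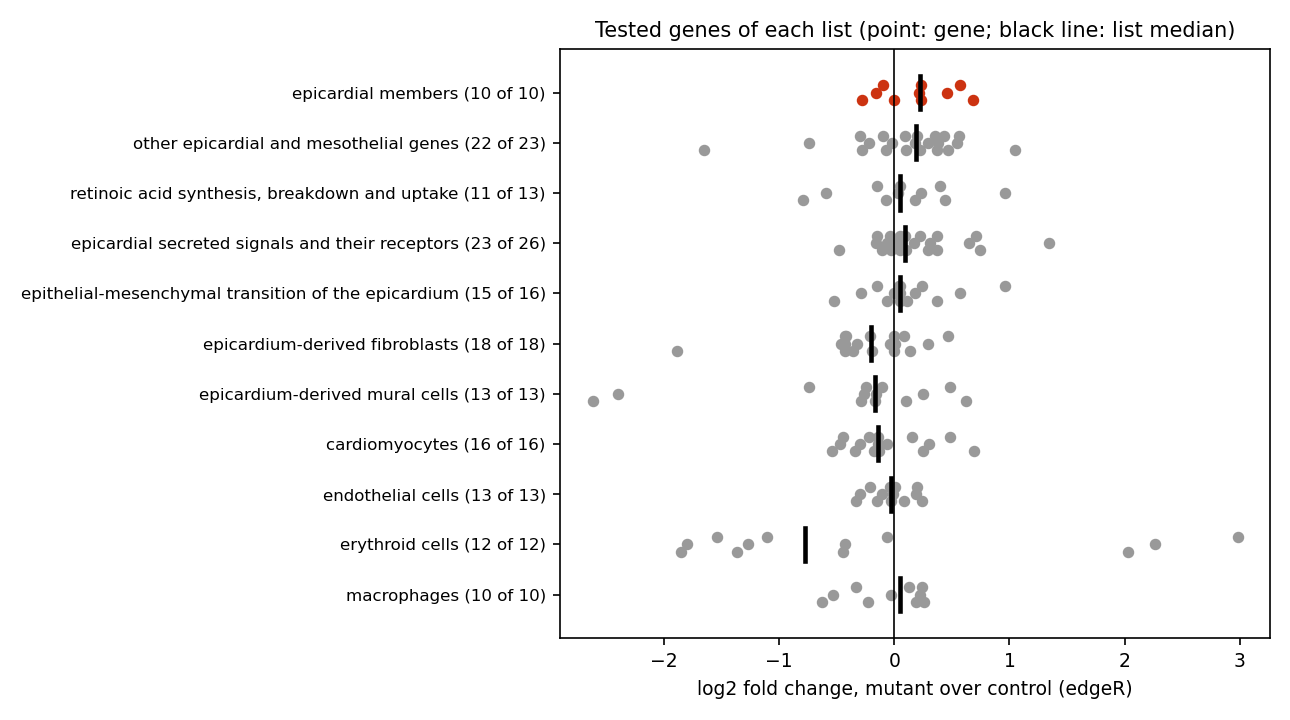
Each point is the log2 fold change (mutant over control, edgeR) of 1 tested gene, grouped by list, with the list median as a black line and the number tested of the number listed in brackets. The 10 epicardial genes (red) have a median of 0.22, and the fibroblast and mural cell lists have medians of -0.20 and -0.17.

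Markers of other cells and tissues were read in the same hearts, since the dissection could bring them along. Of 12 liver genes, 4 were tested and 1 was at 0 in all hearts, and their summed level was 2.52 to 4.51 CPM in control and 3.06 to 3.25 CPM in mutant hearts. Ahsg, a liver plasma protein, had the highest mean of them, at 1.91 ± 0.392 and 1.34 ± 0.253 CPM (SD, n = 3 each). Apob, an apolipoprotein, had 0, 4 and 0 counts in control and 68, 14 and 34 counts in mutant hearts. It was the 1 gene of this list with an unadjusted p under 0.05 in edgeR, where 9.48% of all tested genes were higher. Apob passed the filter on low counts only through the mutant hearts, so its p-value is not independent of the difference. Of 12 genes of lung and foregut epithelium, 1 was tested and 2, Nkx2-1 and Shh, were at 0 in all hearts, and the summed level was at most 1.13 CPM in any heart.

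Genes of the myocardium and of blood cells were read in the same way, and 0 of them passed the adjusted p of edgeR. DESeq2 called 3 cardiomyocyte genes higher and 1 lower, and 2 erythroid genes higher and 0 lower, against 2.63% and 3.22% of all genes. In the cardiomyocyte list, an unadjusted p under 0.05 was reached by 3 of 16 genes that were higher and by 2 that were lower. Over all tested genes the shares at this threshold were 9.48% and 9.98%. The summed level of the cardiomyocyte genes was 31260 to 38030 CPM in control and 30900 to 33240 CPM in mutant hearts. Myl7, a myosin light chain most abundant in atria, was at 262, 207 and 319 CPM in control and 360.4, 541 and 369.5 CPM in mutant hearts. Pln, a regulator of the calcium pump, had a log2 fold change of -0.54. The 12 erythroid genes, all tested, summed to 9302 to 39410 CPM in control and 6444 to 11470 CPM in mutant hearts, with 3 higher and 5 lower past an unadjusted p of 0.05. Hbb-bh1, an embryonic globin, was at 3.05, 1.06 and 1.67 CPM in control and 14.0, 15.7 and 16.5 CPM in mutant hearts, while the adult globin Hbb-bs was at 2586, 5477 and 11910 CPM in control and 1441, 1543 and 2571 CPM in mutant hearts. The part of these genes' tissues in the epicardial values was not tested.

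Endothelial, macrophage and neural lists had medians nearer to 0, which changed sign when 1 heart was left out. The 13 genes of endothelial cells, in which Tie2Cre acts, had a median log2 fold change of -0.03 and summed to 1123 to 1442 CPM in control and 1266 to 1323 CPM in mutant hearts. Esam, an endothelial junction protein, was the 1 gene with an unadjusted p under 0.05 in edgeR (log2 fold change -0.33). DESeq2 called Esam lower, at an adjusted p of 0.021, and 3.22% of all genes lower. The 10 macrophage genes had a median of 0.05, with 5 log2 fold changes above 0 and 5 below. In edgeR 3 of these genes had an unadjusted p below 0.05, and all 3 had less RNA in mutant hearts. At this threshold 9.98% of all tested genes were lower and 9.48% higher. C1qb, a complement subunit, was among the 3, at a log2 fold change of -0.33. Of 10 neural crest and nerve genes 6 were tested, with a median of 0.07 and none with an unadjusted p under 0.05, and Ednrb, an endothelin receptor, was at 229.5, 79.9 and 148.5 CPM in control and 179.7, 188.9 and 190.3 CPM in mutant hearts (log2 fold change 0.29).

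The calls of epicardial genes depended on the fit. Besides DESeq2, edgeR with every gene of at least 1 count called Upk3b and Krt19 higher, at adjusted p-values of 0.013 and 0.045, and 0.926% of all genes higher. Without control replicate 1, edgeR called Upk3b and Bnc1 higher, at adjusted p-values of 0.035 and 0.048, and 1.85% of all genes higher. Across all fits Upk3b had a log2 fold change of 0.47 to 0.65 and an adjusted p of 0.0012 to 0.25, and Krt19 one of 0.47 to 0.88 and an adjusted p of 0.027 to 0.34.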

How the data were processed

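RNA of 3 mutant and 3 control whole hearts was compared. For the deposited counts per gene, the authors mapped paired-end reads to GRCm38 with STAR 2.4.2a and GENCODE vM6 and counted them with summarizeOverlaps, unnormalized; strand use and treatment of overlapping genes are not given in the sources used here. The other deposited file pairs each identifier with a symbol and the authors' DESeq2 results (mean, log2 fold change, its error, statistic and p-values). Only its symbols were used.

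Genes were filtered with filterByExpr (minimum count 10, minimum total 15), scaled by TMM and fitted with edgeR 4.0.16 in R 4.3.3 with condition as the only term. A standard error is the log2 fold change divided by the square root of F. CPM are TMM-scaled, and RPKM use the exon lengths of GENCODE vM21, as do coordinates. Alternatives were RLE factors, DESeq2 1.42.0, no filter, a mean of at least 1 CPM, thinning to the smallest total, the replicate number as a block and leaving out each heart. Fits were tested on simulated counts. Apart from the 10 genes and Ino80, up to 4 genes per list were named by the smallest p among genes averaging 1 CPM or more, and any other as stated. Not every gene that this rule names is reported here. Members and lists were chosen with earlier results of these data known. Replicates are separate hearts; litters are not given.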

Additional observations from a re-analysis of the deposited data

How the results depend on the processing

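At an adjusted p under 0.05, DESeq2 and edgeR without a filter on low counts each called 2 of the 10 epicardial genes higher, and fits that left out 1 heart called 0 to 2, against 0 with all hearts in edgeR. No fit called an epicardial gene lower. The median log2 fold change of the 10 genes was 0.20 to 0.23 under the settings that kept all hearts and 0.11 to 0.25 when 1 heart was left out. Wt1, at 0.00 with all hearts, was at -0.13 without control replicate 2, at -0.014 without mutant replicate 1 and at -0.016 without mutant replicate 2, and Tbx18, at -0.10 with all hearts, ran from -0.22 without control replicate 1 to 0.055 without control replicate 2. Aldh1a2 ran from 0.045 without control replicate 3 to 0.34 without mutant replicate 3, and Msln from -0.26 without control replicate 2 to -0.013 without control replicate 3. Of the other listed genes, 0 passed with all hearts in edgeR, 27 with DESeq2, 26 without a filter, 1 after thinning to the smallest total, and 0 to 26 when 1 heart was left out, the 26 without control replicate 1. The cause was not tested. Over all genes, edgeR called 320 higher and 431 lower without control replicate 1 and 0 with all hearts, DESeq2 called 441 higher and 541 lower, and edgeR without a filter 262 and 341.

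Deviations from the group means correlated at 0.01, -0.12 and -0.09 between hearts of the same replicate number. Between hearts of different numbers they correlated at -0.03 to 0.13. With 3 hearts per group these values cannot settle whether hearts of the same number were paired. With the replicate number as a block, edgeR called 0 of the 10 genes, 1 of all genes higher and 13 lower, and the median of the 10 was 0.22. Every epicardial gene had at least 186 counts in each heart.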

Other observations

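Relatives of the 10 genes were read after the values of the 10 had been seen. In bladder epithelium uroplakins assemble from several partners, of which Upk2 and Upk3a were at 0 counts in all 6 hearts and Upk1a was at 0.102 to 0.513 CPM, while Upk3b was at 36.0 CPM or more. Bnc2, the relative of Bnc1, was at 0.306 to 0.823 CPM, and Aldh1a3, which shares the activity of Aldh1a2, at 0.376 to 1.19 CPM. Tbx20, a T-box gene of cardiac muscle and endocardium, was at 460 to 597 CPM, above Tbx18 in every heart, with a log2 fold change of -0.10 (edgeR adjusted p = 0.61). Krt20, a type I keratin like Krt19, was at 0.783 to 1.32 CPM. Wt1os, the antisense neighbour of Wt1, was at 0.647 to 1.22 CPM and shares no annotated exonic base with it.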
